A study of Mus musculus with 2 samples.

Results

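The genes described here are 46 genes of the cell division cycle, chosen by name from the 31053 genes of the deposited matrices. They fall into an S list of 19 genes that act when DNA is copied, a G2M list of 22 genes that act in G2 phase and mitosis, and a list of 5 G1 cyclins and cyclin-dependent kinase inhibitors. Their unique molecular identifiers (UMIs, counted cDNA molecules) were summed in barcodes with 2000 or more UMIs and under 10% mitochondrial UMIs. The 46 genes took 877506 UMIs in the wild-type (WT) library and 836777 in the knockout (KO) library.

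Whole aorta-gonads-mesonephros regions (AGM, the part of the mouse embryo where the first blood stem cells arise) of embryonic day E11 were dissociated and sequenced as single cells from the 3′ ends of their RNA. The WT embryos were PDGFRB +/+ and the KO embryos PDGFRB -/- for a null allele, from a line kept as heterozygotes on a C57BL/6J background. Each genotype is 1 library of unsorted cells, loaded for 7000 cells, and the number of embryos behind a library is not given in the sources used here. All intervals below are 95% intervals that cover counting error only, so no value carries the spread between embryos and no test between genotypes was possible. Intervals of levels and ratios treat each UMI as independent, so they also leave out the spread between barcodes.

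The cell cycle is run by waves of transcription. E2F factors switch on genes for the replication machinery at the G1/S border. They are released when cyclin D and cyclin E kinases inactivate the retinoblastoma proteins. The DREAM and MuvB complexes with B-Myb and FoxM1 act on genes of G2 and mitosis through CHR elements. CCAAT boxes are counted beside the CHR elements below and are not read as sites of these complexes. Embryonic tissues at this stage grow fast, and cells that leave the cycle to differentiate, such as myocytes, lose both waves and often gain inhibitors such as p21 (Cdkn1a).

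Promoters are printed for 3 S list and 4 G2M list genes, because the sequence elements of the lists are what the levels below can be read beside. These genes were picked by hand and do not stand for their lists. Each of the 3 holds an E2F site, and each of the 4 a CHR element and a CCAAT box. Other genes of the lists lack these elements, as counted below. The RefSeq table (GRCm38.p6; 250 bases before to 50 after each transcript start) matched 38 of the 46 genes. No entry was found for Mcm4, Gins2, Ccne2, Ccna2, Aurkb, Tpx2, Ccnd1 and Ccnd2. The 180 bases before the RefSeq start are given 5′ to 3′ on the gene's strand. Capitals mark exact matches on either strand to one of the E2F sites TTCCCGC or TTGGCGC or TTCGCGC or TTGCCGC, to the CHR element TTTGAA or to the CCAAT box, which is named by its letters, and overlapping matches run together. The S list stretches are Mcm5 at chr8:75109329-75109508 (plus strand), Mcm6 at chr1:128359706-128359885 (minus strand) and Rrm1 at chr7:102441515-102441694 (plus strand).
Mcm5: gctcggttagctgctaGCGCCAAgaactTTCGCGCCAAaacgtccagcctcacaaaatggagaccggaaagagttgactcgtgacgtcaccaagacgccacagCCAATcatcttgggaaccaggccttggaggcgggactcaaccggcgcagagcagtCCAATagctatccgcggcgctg
Mcm6: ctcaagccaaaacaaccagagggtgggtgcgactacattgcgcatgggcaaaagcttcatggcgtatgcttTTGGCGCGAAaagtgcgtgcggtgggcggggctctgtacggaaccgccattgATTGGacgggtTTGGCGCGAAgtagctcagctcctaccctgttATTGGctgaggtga
Rrm1: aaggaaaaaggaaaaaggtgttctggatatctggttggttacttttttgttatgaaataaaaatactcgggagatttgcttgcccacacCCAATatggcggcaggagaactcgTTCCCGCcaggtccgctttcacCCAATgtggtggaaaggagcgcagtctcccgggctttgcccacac

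Those of the G2M list are Top2a at chr11:99024190-99024369 (minus strand), Cdk1 at chr10:69352913-69353092 (minus strand), Cdc20 at chr4:118437344-118437523 (minus strand) and Ube2c at chr2:164769749-164769928 (plus strand).
Top2a: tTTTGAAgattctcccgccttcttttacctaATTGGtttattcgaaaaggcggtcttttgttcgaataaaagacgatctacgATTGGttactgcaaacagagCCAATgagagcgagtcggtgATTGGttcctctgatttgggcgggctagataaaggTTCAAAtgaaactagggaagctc
Cdk1: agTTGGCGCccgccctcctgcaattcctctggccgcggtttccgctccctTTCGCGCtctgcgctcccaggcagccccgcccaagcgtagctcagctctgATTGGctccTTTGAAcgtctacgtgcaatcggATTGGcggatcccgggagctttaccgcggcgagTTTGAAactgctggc
Cdc20: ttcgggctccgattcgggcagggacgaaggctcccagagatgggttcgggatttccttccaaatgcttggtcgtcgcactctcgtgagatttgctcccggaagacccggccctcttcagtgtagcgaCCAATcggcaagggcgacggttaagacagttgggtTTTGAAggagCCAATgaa
Ube2c: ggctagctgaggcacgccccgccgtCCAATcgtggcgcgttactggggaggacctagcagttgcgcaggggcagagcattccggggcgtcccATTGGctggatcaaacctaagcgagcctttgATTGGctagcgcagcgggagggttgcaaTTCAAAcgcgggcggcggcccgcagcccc

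An E2F site stood in the promoter of 9 of the 16 matched S list genes (Mcm3, Mcm5, Mcm6, Mcm7, Rrm1, Rrm2, Cdc6, Cdt1 and Uhrf1) and of 4 of the 19 matched G2M list genes (Mki67, Ccnb1, Cdk1 and Hmmr), against 9.57% of all 32851 promoters of the same length. The CHR element had the opposite spread, with 14 of the 19 G2M list genes and 2 of the 16 S list genes (Mcm2 and Cdc45), against 17.9% of all promoters. CCAAT boxes were common in both lists, in 11 of 16 and 17 of 19, against 37.4%. CHR and CCAAT together were found in the same 14 G2M list genes and the same 2 S list genes, against 6.95% of all promoters. Among the 3 matched genes of the G1 and inhibitor list, Ccnd3 and Cdkn1b held a CCAAT box and no gene held either other motif. A gene was counted if any of its promoters held the motif, and the 38 matched genes had 42 promoters. The shares of all promoters count single promoters, so the measures differ slightly. A match is a string of letters and not a bound site.

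After the limits on UMIs and mitochondrial share, 8253 WT and 8165 KO barcodes remained, with a median of 13321 and 12391 UMIs. Marker gates placed 6541 and 6526 of them in 11 classes with 50 or more barcodes in each library. Barcodes past several gates (517 and 502, median 40084 and 36614 UMIs) or none (1156 and 1083, median 2971 and 3029) had no class, and no doublet caller was run. The libraries shared 20 barcodes. Pdgfrb stood at 43.1 CPM (UMIs scaled to a total of 1000000) in WT and 7.09 in KO, and where the 3′ reads lie relative to the deleted part was not given. Xist was at 793 CPM in WT and 0.415 in KO and Y-linked genes at 0.0266 and 163, so the sex of the embryos and the genotype cannot be told apart in any difference below. Each class had 3 check genes that its own gate did not use. All 3 were highest in their own class in both libraries for the erythroid, macrophage, endothelial, neural crest, neuron and smooth muscle gates. In WT sclerotome, KO myoblasts and KO coelomic and gonadal ridge cells 2 of 3 were. Foxc2 was at 60.4 CPM in WT sclerotome against 68 in the highest other class, and Mef2c at 406 in KO myoblasts against 514. Msln was at 0.275 (WT) and 0 (KO) in coelomic and gonadal ridge cells. The muscle progenitor gate took barcodes with no Myog and 2 or more of Pax7, Myf5, Pax3, Met, Cdh15 and Msc. Of its 3 check genes, 0 in WT and 1 in KO were highest in it. Myod1 was at 18.6 and 40.7 CPM there, against 325 and 336 in the highest other class. Eya1 was at 23 and 27.1, against 54.9 and 55.7. Both genes had rank 2 among the classes in both libraries. Lbx1 was at 0 in WT and at 2.93 in KO, where the next class had 2.35. Whether these barcodes are muscle progenitors was not tested further, and the gate is called the Pax7/Myf5 gate below. The mesenchyme gate is what the other gates left, and none of its check genes was highest in it.

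Every member was first read against the rest of its own list, barcode by barcode, to see how far the members rise together. The genes were chosen by name as cycle genes, so a joint rise cannot show which phase a barcode was in. Each barcode was thinned at random to 2000 UMIs, so that depth could not set the counts, and the gene under study was left out of the list sum. All 22 G2M list genes were at least 1.5-fold higher in barcodes with 5 or more G2M list UMIs than in barcodes with none, in both libraries, with a median log2 ratio of 4.19 in WT and 4.45 in KO. Of all other genes, 8.01% (WT) and 8.04% (KO) were that much higher. Hmmr, a spindle protein, had the steepest contrast, at 144 against 3.46 CPM in WT (log2 5.38, 5.08 to 5.71) and 164 against 2.5 in KO (6.03, 5.70 to 6.38). Kif23, a motor of cytokinesis, stood at 5.26 in both libraries, and Cenpf, a kinetochore protein, at 4.87 in WT and 5.36 in KO. The lowest in the list was Ccnb2 (cyclin B2), which still stood at 151 against 20.9 CPM in WT (2.85) and 140 against 14.8 in KO (3.24). Mki67, the proliferation antigen, was at 366 against 27.7 CPM in WT (3.72) and 440 against 21.5 in KO (4.35).

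The S list had smaller ratios along its own sum. Its limit was 3 UMIs and not 5, and its level was lower (1672 against 3477 CPM in WT). How tightly the lists hold together can therefore not be compared from these ratios. All 19 S list genes were at least 1.5-fold higher in barcodes with 3 or more S list UMIs than with none, with a median log2 ratio of 1.81 in WT and 1.61 in KO, but so were 29.8% and 12.7% of all other genes, whose median was 0.39 and 0.22. Ccne2 (cyclin E2) and Cdc6, which loads the replicative helicase onto origins, led the list: Ccne2 was at 48.1 against 6.51 CPM in WT (2.89) and 43.2 against 6.66 in KO (2.70), and Cdc6 at 29.2 against 4.08 (2.84) and 28.3 against 3.08 (3.20). Tyms (thymidylate synthase) in WT at 1.2 and Rrm1 in KO at 1.17 were the lowest. Erythroid barcodes made up 33.4% of the WT and 13.8% of the KO barcodes with no S list UMI, so part of this contrast compares classes. Within the mesenchyme gate alone Ccne2 stood at 3.40 and 2.89, Cdc6 at 2.46 and 4.06, and Tyms at 1.26 and 1.32.

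Members also separated by their contrast along the other list. Along the G2M list, 7 of the 19 S list genes were past 1.5-fold, against 8.01% (WT) and 8.04% (KO) of all other genes. They were the same genes in both libraries: Pcna, the sliding clamp, the nucleotide enzymes Tyms, Rrm1, Rrm2 and Dut, Cdc45, a part of the replicative helicase, and Uhrf1, which keeps DNA methylation through replication. Rrm2, the small subunit of ribonucleotide reductase, reached 1.77 in WT and 1.84 in KO, and Tyms 1.47 and 1.58. The helicase subunits Mcm6 (-0.21 and -0.19) and Mcm4 (-0.094 and -0.069) were slightly lower in barcodes rich in G2M list UMIs, and Cdt1, Ccne1 and Mcm2 lay between -0.062 and 0.19. Along the S list, 6 of the 22 G2M list genes in WT and 3 in KO were past 1.5-fold, a share near the 29.8% and 12.7% of all other genes, so nothing is read from it. The 3 genes that passed in both libraries were Top2a (topoisomerase II, 1.14 and 0.87), Bub1 (1.17 and 0.67) and Aurkb (1.00 and 0.86), while Cenpf, Hmmr and Ccnb2 stood between -0.21 and 0.31.

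**Figure D1:**
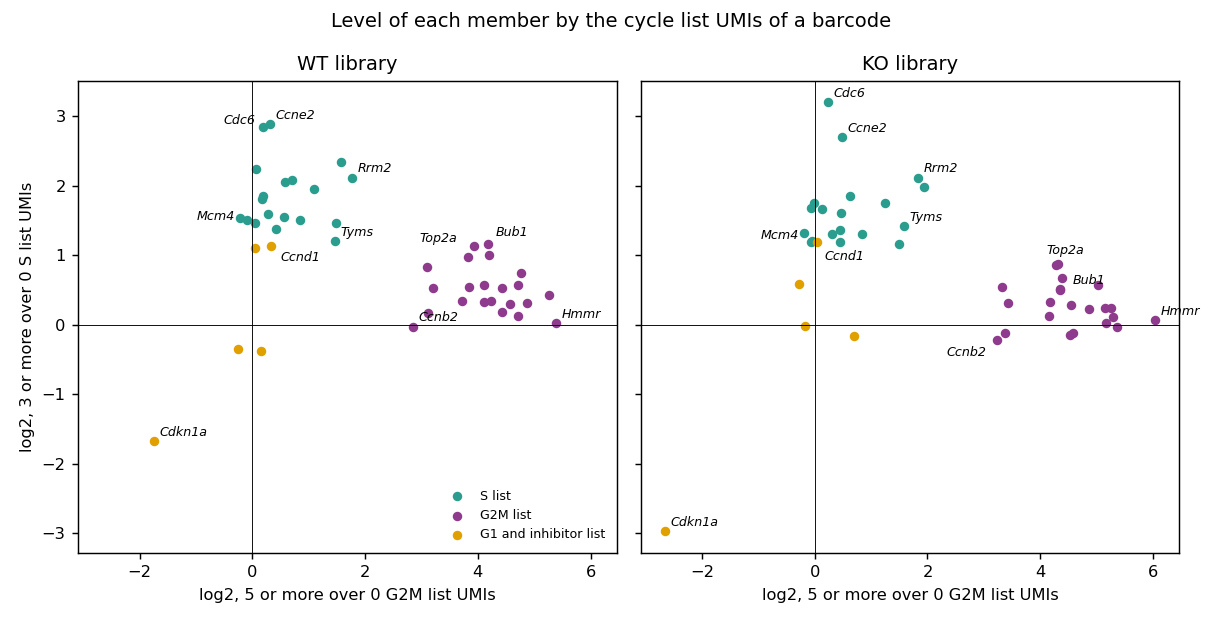
Each point is a member gene in the WT library (left) or the KO library (right). The horizontal axis is its log2 ratio of CPM between barcodes with 5 or more and with 0 G2M list UMIs, and the vertical axis the same for 3 or more against 0 S list UMIs, at 2000 UMIs per barcode with the gene itself left out of the sum. The G2M list lies between 2.85 and 6.03 on the horizontal axis, the S list between 1.17 and 3.20 on the vertical axis, and Cdkn1a lies low on both.

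The D cyclins and inhibitors had no common direction. Ccnd1 (cyclin D1) was higher in barcodes with 3 or more S list UMIs, at 147 against 67.2 CPM in WT (1.13) and 198 against 86.9 in KO (1.19), and stood at 0.34 and 0.042 along the G2M list. Ccnd2 had 1.10 and 0.59 along the S list. Cdkn1b (p27) was at 0.15 in WT and 0.70 in KO along the G2M list, and at -0.38 and -0.16 along the S list. Cdkn1a had the lowest ratios of all members, at 9.18 against 30.8 CPM in WT (-1.75) and 8.67 against 54.5 in KO (-2.65) along the G2M list and at -1.67 and -2.97 along the S list. Its contrast did not hold inside the mesenchyme gate along the S list, where it was at 1.97 against 0.401 CPM in WT (2.30, 0.39 to 5.37) and 1.79 against 1.44 in KO (0.32, -0.83 to 1.71), on few UMIs. Most Cdkn1a UMIs of the described classes came from the myoblast and macrophage gates, as given below.

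From all genes outside the lists, the 10 whose level differed most between barcodes with 5 or more and with 0 G2M list UMIs were Aspm, Kif14, Troap, Pif1, Kif2c, Depdc1a, Knl1, Ckap2l, Prc1 and Kif4, ranked by the smaller of the WT and KO ratios over 13533 genes, of which 5.42% were past 1.5-fold. Aspm, a spindle pole protein whose loss gives a small brain, was at 93.0 against 1.80 CPM in WT (5.69) and 109 against 1.49 in KO (6.19). Prc1, which bundles microtubules of the central spindle, was at 210 against 8.66 (4.6) and 253 against 8.52 (4.89). Kif14, Kif2c and Kif4 are kinesins, as are Kif11, Kif23 and Cenpe in the list. Within the mesenchyme gate, whose barcodes were part of those that ranked the genes, all 10 ranged from 4.68 to 8.19 on the log2 scale. These values are therefore no separate support for the ranking.

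The share of barcodes that held list UMIs at equal depth was then compared between libraries and classes. With 3 or more G2M list UMIs of 2000 as the limit, 55.0% (53.9 to 56.1) of WT and 48.8% (47.7 to 49.9) of KO barcodes passed, and without thinning 80.3% and 74.9%. For the S list the shares were 52.6% and 49.2%. The limit cuts a range and not a type: 703 WT and 653 KO barcodes held 2 G2M list UMIs, and 505 and 455 held 3. Barcodes with no G2M list UMI made up 22.3% of WT and 27.7% of KO, and those with 10 or more 24.5% and 23.1%, so the libraries differed more at the empty end than at the full end. Both limits were passed by 33.2% of WT and 27.9% of KO barcodes and neither by 25.7% and 30.0%.

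Free RNA sets a floor under such shares. In barcodes with at most 100 UMIs the S list stood at 1647 CPM in WT and 1671 in KO, close to the 1672 and 1615 CPM of the barcodes used, and the G2M list at 2881 and 2691 against 3477 and 3449. A barcode filled with such RNA alone would hold 3.29 (WT) or 3.34 (KO) S list UMIs and 5.76 or 5.38 G2M list UMIs of 2000 on average, above the limit of 3. The class with the fewest list UMIs, erythroid barcodes of the KO library, held a mean of 0.371 S list UMIs of 2000, and 79.2% of them held none. That value limits the free RNA in these erythroid barcodes, and how much of it the other classes held was not tested. The shares are given as shares of barcodes with list UMIs and not as shares of cycling cells.

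In CPM the S list was highest in sclerotome (the somite cells that form vertebrae and ribs; 2047 CPM) and the Pax7/Myf5 gate (1967) of the WT library, whose intervals met, and lowest in erythroid barcodes (586), with smooth muscle (1363) and neural crest (1419) next above. The G2M list was highest in the same pair, at 4179 and 4190 CPM, whose intervals met, and again lowest in erythroid barcodes (2486). The place of the erythroid barcodes in these orders depends on globin: with globin UMIs left out of the total, their G2M list was the highest of the 11 classes in both libraries (6250 and 4665 CPM), and their S list, at 1473 CPM in WT, stood above smooth muscle (1366), neural crest (1423) and myoblasts (1442), while in KO (729) it was still the lowest. In the KO library smooth muscle (4064 CPM) and neuron (3961) stood highest for the G2M list, with intervals that met, and sclerotome (3817) came next. In WT the G2M list share ran from 75% (63.4 to 84.5) in the Pax7/Myf5 gate to 41.9% (31.8 to 52.6) in neural crest. Every interval met that of its neighbour in the order. In KO the share ran from 61.3% in neuron to 24.8% (19 to 31.3) in erythroid barcodes. Share intervals count barcodes, whereas CPM intervals count UMIs and leave out the spread between barcodes. As a mean of single barcodes, 43 of 44 list levels lay outside their CPM interval. The widths therefore do not tell whether CPM orders the classes better.

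**Figure D2:**
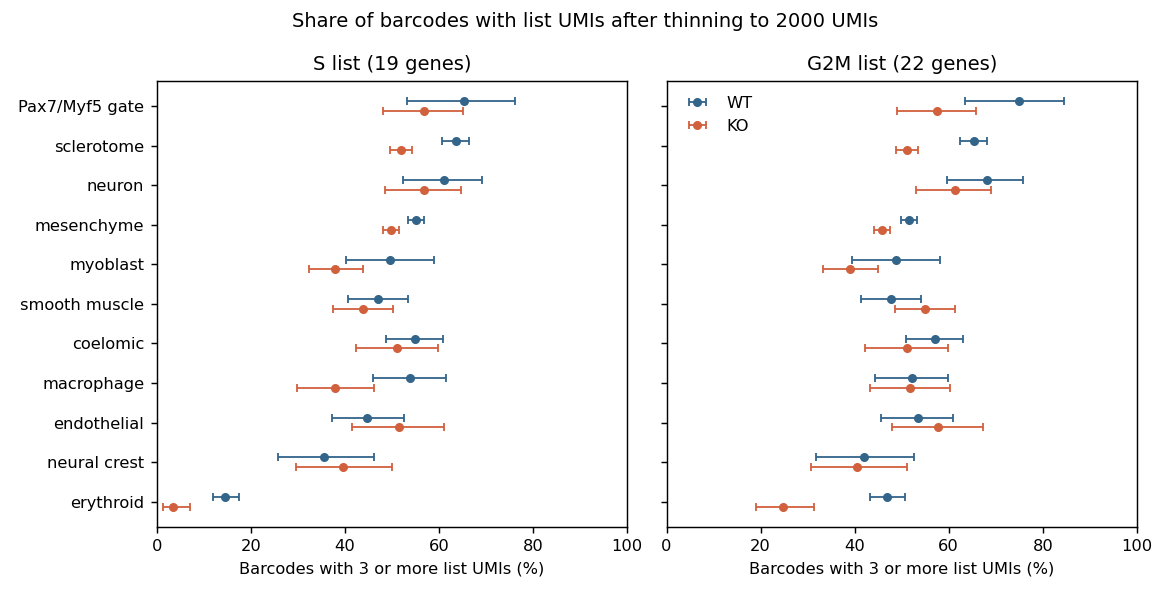
Each point is the share of barcodes (%) of a class with 3 or more S list UMIs (left) or G2M list UMIs (right) after thinning to 2000 UMIs, for WT (blue) and KO (orange), with exact binomial 95% intervals that cover counting error only. WT and KO intervals lie apart for sclerotome, mesenchyme and erythroid barcodes in both panels. The 2000 UMIs include globin, so the erythroid shares rest on fewer other UMIs, more so in KO.

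For ratios over all classes, each class was weighted by its share of the WT UMIs (the WT mix), so that class sizes could not set the ratio. Both lists were then slightly lower in the KO library. The S list had a log2 ratio of KO over WT of -0.15, and 15 of its 19 genes were below 0, with a median of -0.11. The G2M list had -0.10, and 19 of its 22 genes were below 0, with a median of -0.089. Over all 14407 genes with 100 or more UMIs the median was 0.015, and 47.1% were below 0. No member was past 1.5-fold, where 3.98% of those genes were higher and 3.89% lower in KO by that much, so the differences of single members were small. Without the erythroid gate the lists stood at -0.11 and -0.053, with 15 and 14 genes below 0, and with all barcodes and no weighting at -0.05 and -0.012, with 12 genes below 0 in each list.

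Among replication genes the largest difference was that of Slbp (chr5:33634952-33652574), which binds the stem-loop of histone mRNAs, at 156 CPM in WT and 119 in KO (-0.39, -0.42 to -0.36). Rrm2 (chr12:24708241-24714146) was at 119 and 91.9 CPM (-0.38, -0.41 to -0.34). The G1/S cyclin Ccne2 had -0.35 and the licensing factor Cdt1 -0.28, while the other cyclin E gene, Ccne1, stood at 48.0 and 48.4 CPM (0.011). The helicase subunits Mcm3 (0.0093) and Mcm4 (0.018) and the clamp Pcna (0.0054) had intervals that held 0. Summed over the described classes without weighting, they stood at 0.088, 0.11 and 0.074. Whether the S list shifted as a block was not tested.

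Among mitotic genes Nusap1 (chr2:119618298-119651244), which binds spindle microtubules, was at 170 CPM in WT and 122 in KO (-0.48, -0.51 to -0.44), the lowest ratio of the 46 genes. Aurkb (chr11:69045647-69051664), the kinase of the chromosomal passenger complex, was at 67.6 and 51.4 CPM (-0.40, -0.45 to -0.35). The cyclins Ccna2 (-0.32) and Ccnb2 (-0.30) and their kinase partner Cdk1 (-0.26) were also lower. The centromere motor Cenpe (0.080), the kinetochore protein Cenpf (0.075) and Mki67 (0.054) were slightly higher in KO, and Top2a was nearly level, at 479 and 473 CPM (-0.019).

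The G1 cyclins differed in sign. Ccnd1 (chr7:144929931-144939925) was at 101 CPM in WT and 136 in KO (0.42, 0.39 to 0.46), the highest ratio of the 46 genes. Ccnd2 had 0.17 and Ccnd3 -0.17. With this weighting the inhibitors Cdkn1b (0.082) and Cdkn1a (0.041, -0.069 to 0.15) differed little. The Cdkn1a value averages classes of opposite sign, 2 below 0 and 9 above. Summed over the described classes without weighting, its ratio was 0.61, past 1.5-fold.

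**Figure D3:**
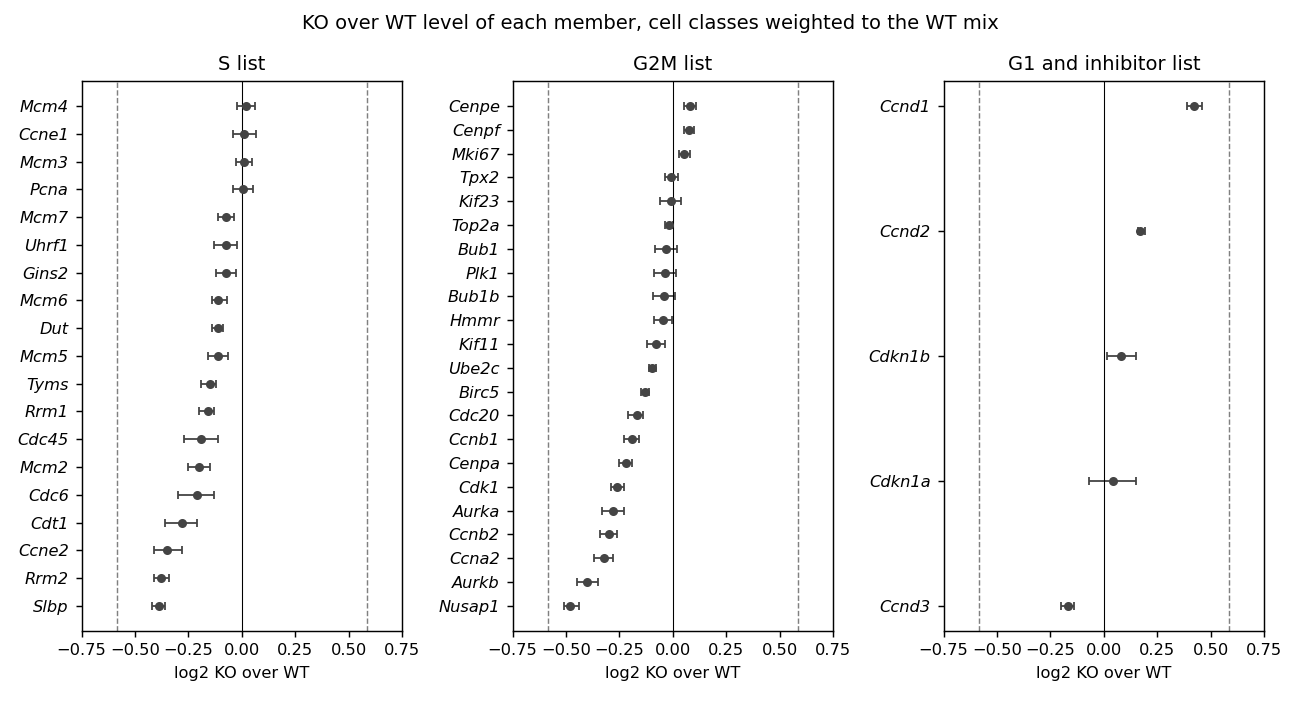
Each point is the log2 ratio of KO over WT of a member gene with classes weighted to the WT mix, with a 95% interval for counting error, in the S list (left), the G2M list (middle) and the G1 and inhibitor list (right). Dashed lines mark 1.5-fold. No gene reaches them, and the points run from -0.48 (Nusap1) to 0.42 (Ccnd1).

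The genes differed in how far the direction was shared by the 11 classes. Slbp, Aurkb and Ccnb2 were below 0 in all 11, with intervals wholly below 0 in 9, 6 and 8 of them. How many of all genes were below 0 in every class was not counted, here or for other genes counted by class. In erythroid barcodes, with globin in the total, the median of all genes was itself -0.63, so the sign there says little. With mitochondrial UMIs under 5%, each was above 0 in 2 classes: Slbp in neuron (0.025) and smooth muscle (0.096), Aurkb in neural crest (0.22) and neuron (0.17), and Ccnb2 in endothelial (0.015) and coelomic and gonadal ridge cells (0.50). Slbp was at 188 CPM in WT and 143 in KO in sclerotome (-0.40), 175 and 137 in mesenchyme (-0.35), 160 and 122 in neuron (-0.39) and 141 and 90.9 in macrophages (-0.63), while in smooth muscle (119 and 112, -0.079) the interval held 0. Nusap1 was below 0 in 9 classes, with -0.72 in the Pax7/Myf5 gate and -0.58 in myoblasts, but not in endothelial cells (110 and 121 CPM, 0.13) or smooth muscle (138 and 152, 0.14, 0.0091 to 0.27). Both exceptions turned below 0 under an alternative, to -0.46 in endothelial cells without the deepest 5% of barcodes and to -0.23 in smooth muscle with mitochondrial UMIs under 5%. Mki67 was above 0 in 9 of 11 classes, and erythroid barcodes (-0.75, or -0.27 without globin) and myoblasts (-0.27) were the exceptions, and without the deepest barcodes endothelial cells (-0.12) were one too.

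In sclerotome, which holds 1135 WT and 1768 KO barcodes, all 19 S list genes were below 0 in KO over WT, with a median of -0.29 against 0.059 for all 11297 genes tested there. Rrm2 was the 1 gene past 1.5-fold, at 143 CPM in WT and 93.2 in KO (-0.61, -0.69 to -0.54), where 2.37% of all genes were lower by that much. Cdt1 (30.2 and 21.3 CPM, -0.51), Cdc6 (25.6 and 18.2, -0.49) and Ccne2 (48.1 and 34.3, -0.49) came next. Of the G2M list 18 of 22 genes were below 0, with a median of -0.19, and Mki67 was higher (240 and 277 CPM, 0.21). The S list ratio stayed between -0.33 and -0.27 under the alternatives, with 17 to 19 genes below 0, but the G2M list ratio, -0.13, was -0.027 with mitochondrial UMIs under 5%, with 14 genes below 0. All 5 genes of the G1 and inhibitor list were above 0. The share with 3 or more G2M list UMIs was 65.3% (62.4 to 68.1) in WT and 51.1% (48.7 to 53.4) in KO, and for the S list 63.6% and 51.9%. In the WT library all 41 genes of both lists were higher in sclerotome than in the other classes together, and in the KO library all 22 G2M list genes and 14 of the 19 S list genes were. The medians were 0.33 (S) and 0.34 (G2M) in WT and 0.046 and 0.19 in KO, against 0.062 and 0.031 over all genes. The other classes include the erythroid barcodes, whose globin lowers the CPM of every other gene, and the count was not particular to sclerotome: in WT mesenchyme all 19 S list genes were also above 0, with a median of 0.25 against 0.23 over all genes.

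Mesenchyme, the largest class with 3415 and 3259 barcodes, had smaller differences of the same sign, with an S list at 1838 and 1705 CPM (-0.11, -0.12 to -0.095) and a G2M list at 3673 and 3484 (-0.077, -0.086 to -0.067). With mitochondrial UMIs under 5%, which leaves 902 and 726 barcodes, the G2M list was at 4254 and 4284 CPM (0.0099), so its direction was not kept. Nusap1 (170 and 123 CPM, -0.46) and Aurkb (71.1 and 55.3, -0.36) were among the lowest ratios, and Ccnd1 among the highest (89.3 and 119, 0.42). None of the S and G2M list genes was past 1.5-fold there, against 3.93% lower among all genes.

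In CPM, smooth muscle had the opposite sign. Its S list was at 1363 CPM in WT and 1518 in KO (0.16, 0.11 to 0.20) and its G2M list at 3465 and 4064 (0.23, 0.20 to 0.26), with 16 of 19 and 18 of 22 genes above 0 and none past 1.5-fold, where 5.04% of all genes were higher by that much. The medians of the list genes were 0.10 and 0.14, against 0.031 for all genes tested there. Both ratios stayed above 0 under every alternative tried, down to 0.067 for the S list with 1 more gate gene. The G2M list ratio fell to 0.12 without the deepest barcodes, and also without KO barcodes holding a Pdgfrb UMI. The latter setting leaves 167 of the 240 KO barcodes, at 3754 CPM, and the paper set such KO cells aside. The genes above 0 were as few as 11 of 19 with 1 more gate gene and, with mitochondrial UMIs under 5%, 10 of 22. Bub1 (48.7 and 72.1 CPM, 0.56), Mki67 (216 and 310, 0.53) and Top2a (412 and 584, 0.50) led. The D cyclins were past 1.5-fold: Ccnd2 at 270 and 486 CPM (0.85, 0.76 to 0.93) and Ccnd1 at 55.3 and 90.1 (0.70, 0.51 to 0.90). The inhibitor Cdkn1a (chr17:29090976-29100727) was at 15.2 CPM on 97 UMIs in WT and 1.56 on 11 UMIs in KO (-3.28, -4.33 to -2.38), or -1.14 with mitochondrial UMIs under 5%, where 6.6% of all genes were lower by 1.5-fold. Under the same limit the Ccnd1 ratio was 1.39. The shares with 3 or more G2M list UMIs, 47.8% and 55.0%, had intervals that met. The S list share did not follow its CPM, at 47% (40.7 to 53.4) in WT and 43.8% (37.4 to 50.3) in KO, with intervals that met. The 3 check genes of the smooth muscle gate, which code for contractile proteins, were all lower in KO (Acta2 at 6883 and 3315 CPM, Tagln at 3362 and 1807, Myl9 at 1293 and 782), and their part in these values was not tested.

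Endothelial cells had a G2M list at 2857 CPM in WT and 3240 in KO (0.18, 0.15 to 0.21) and an S list at 1460 and 1574 (0.11), on 174 and 109 barcodes. Neither direction was kept under every alternative. Without the deepest 5% of barcodes, which leaves 134 and 64 here, the G2M list was at 2646 and 2377 CPM (-0.15) and the S list at 1496 and 1482 (-0.014), and with 1 more gate gene the S list was at 1540 and 1508 (-0.031). Ccnd1 was at 139 and 275 CPM (0.99, 0.86 to 1.12), the largest ratio of any D cyclin in any class, and its ratio ran from 0.90 to 1.51 under the alternatives. Cdkn1a was also higher (8.14 and 21.3, 1.39, or 0.63 without the deepest barcodes and 2.36 with 1 more gate gene) and Cdkn1b lower (37.2 and 22, -0.76). Among all genes in this class 4.94% were higher and 9.23% lower by 1.5-fold. Neurons likewise had more Ccnd1, at 381 and 612 CPM (0.68, 0.59 to 0.78; 0.52 to 1.12 under the alternatives), where 2.15% of genes were higher by 1.5-fold. Their S list ratio, -0.072, was 0.17 with 1 more gate gene, and their G2M list ratio, 0.035, was -0.033 with mitochondrial UMIs under 5%, -0.062 without KO barcodes holding a Pdgfrb UMI and -0.12 as a mean of single barcodes, so no direction is read for either. Neural crest had the highest Ccnd1 of the WT classes, at 406 CPM, and stood at 354 in KO (-0.20, -0.35 to -0.048), or 0.42 with mitochondrial UMIs under 5%, which leaves 22 and 30 barcodes. Its G2M list ratio, 0.12, was -0.045 under that limit.

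In macrophages the S list was at 1788 CPM in WT and 1471 in KO (-0.28, -0.34 to -0.22; -0.42 to -0.25 under the alternatives), with 18 of 19 genes below 0, and Slbp (-0.63) and Rrm2 (112 and 73.3 CPM, -0.61) past 1.5-fold, against 5.14% of all genes lower. The median of the S list genes was -0.31, against -0.052 for all genes tested there. The G2M list was at 3033 and 3000 CPM, and the interval of its ratio ran from -0.061 to 0.029 and held 0. In coelomic and gonadal ridge cells both lists lay near 0, at -0.026 and -0.025, with intervals from -0.071 to 0.019 and from -0.059 to 0.0079, and neither sign was kept under every alternative.

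Erythroid barcodes stood apart. Globin took 60.2% of their UMIs in WT and 71.5% in KO, so every other gene loses CPM with it, and values without globin in the total are given beside. The S list was at 586 CPM in WT and 208 in KO (-1.50, -1.60 to -1.39), or -1.01 without globin, and the G2M list at 2486 and 1329 (-0.90, -0.95 to -0.86), or -0.42. With free RNA subtracted at 5% of UMIs the S list was at 530 and 131 CPM (-2.02) and the G2M list at 2465 and 1257 (-0.97). All 16 S list genes that passed 100 UMIs were lower by 1.5-fold, and 15 of the 16 were so without globin, where the background was 54.6% and 16.8% of all genes and their median -0.63 and -0.15. For the G2M list the counts were 21 and 7 of 22. Mcm6 was at 33.5 and 7.81 CPM (-1.62 without globin), while Ube2c, the ubiquitin-conjugating enzyme of the anaphase-promoting complex, was nearly level without globin (-0.024). The class itself held 708 WT and 202 KO barcodes.

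The erythroid class also had its own balance of members. Without globin, its G2M list was the highest of all classes in both libraries (6250 and 4665 CPM), while its S list was at 1473 and 729 CPM. In WT, 10 of 22 G2M list genes were past 1.5-fold above the other classes together, against 9.15% of all genes, and none was that much below, against 72.4%. Mki67 (909 CPM, log2 2.02), Nusap1 (559, 1.77) and Hmmr (245, 1.48) led them, and Ccnd3 (705, 2.20), the D cyclin of erythroid cells, was higher still. Of the S list 9 of 19 were past 1.5-fold below, a smaller share than the 72.4% of all genes, and the S list median, -0.58, lay above the -1.39 of all genes. Ccne1 and Gins2 (both -1.50) were lowest. Ccnd1 and Ccnd2 were low, at 15.2 and 71.9 CPM (-2.89 and -2.47).

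**Figure D4:**
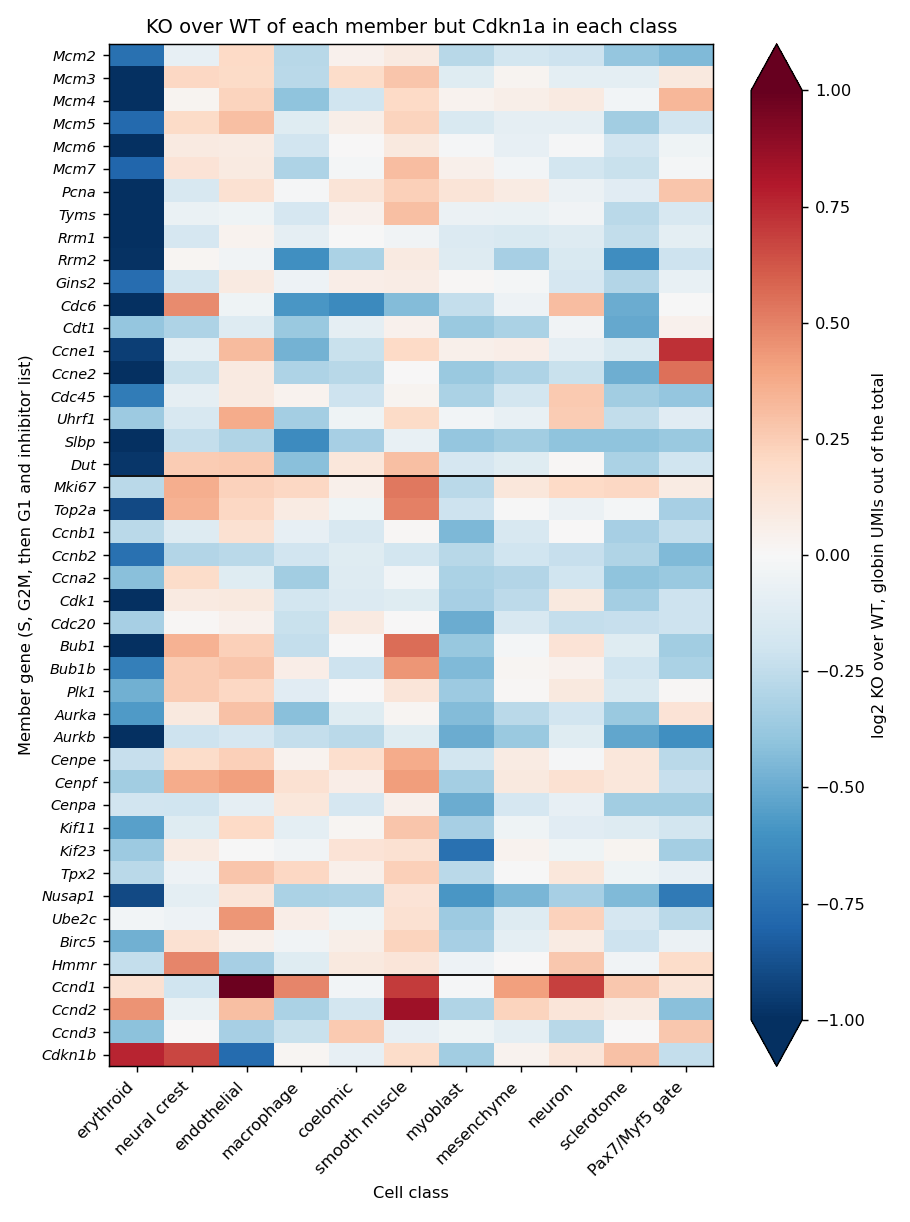
Colours give the log2 ratio of KO over WT of each member gene (rows; S, G2M, then G1 and inhibitor list) in each class (columns, ordered by the WT level of the G2M list), with globin UMIs left out of the total and the scale ending at -1 and 1. Cdkn1a, which has few UMIs in most classes, is not drawn. The erythroid column is mostly blue, the myoblast G2M rows are all blue, and the smooth muscle column is mostly red.

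Myog, the gate gene of the myoblasts, is known to come on as myoblasts leave the cycle. Myog-positive myoblasts are compared here with the Pax7/Myf5 gate, whose check genes left its muscle label open. The pair is therefore not read as a series of muscle stages. In the WT library Myog-positive myoblasts had an S list at 1441 CPM against 1967 in the Pax7/Myf5 gate (-0.45, -0.51 to -0.38), and in KO 1335 against 1898 (-0.51, -0.56 to -0.45). Of the S list, 16 of the 18 genes that passed 100 UMIs were lower in WT and all 19 in KO, with 3 and 7 past 1.5-fold, where 9.64% and 9.95% of all genes were lower by that much. The medians of the list, -0.47 and -0.55, stood against -0.12 and -0.14 over all genes. Gins2, a helicase cofactor, was at 47.1 against 76.5 CPM in WT (-0.70) and 47.6 against 72.2 in KO (-0.60), and Mcm5 at -0.67 and -0.62. In CPM the G2M list differed less, at 3673 against 4190 CPM in WT (-0.19, -0.23 to -0.15) and 2898 against 3548 in KO (-0.29, -0.33 to -0.25), with 20 of 22 genes lower in each library and none past 1.5-fold. The median of its genes was -0.13 in WT, near the -0.12 of all genes, so the WT count says little about the list, and -0.33 in KO against -0.14. With 1 more gate gene required, these G2M list ratios were -0.35 and -0.49, and with mitochondrial UMIs under 5% they were -0.28 and -0.51. At equal depth, 48.7% (39.4 to 58.1) of WT myoblasts held 3 or more G2M list UMIs, against 75% (63.4 to 84.5) in the Pax7/Myf5 gate. In KO these shares were 39% and 57.6%. For the S list the shares were 49.6% against 65.3% in WT and 37.9% against 56.8% in KO. By share, the G2M list therefore did not differ less in WT.

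Cdkn1a was the member with the largest ratio. It was at 248 CPM (621 UMIs) in WT myoblasts against 1.96 (4 UMIs) in the Pax7/Myf5 gate (6.98, 5.62 to 8.86), and at 263 against 3.30 CPM in KO (6.32, 5.39 to 7.45), where 6.26% (WT) and 7.39% (KO) of all genes were higher by 1.5-fold. Ccnd2 was lower in myoblasts, at 198 against 461 CPM (-1.22) and 161 against 343 (-1.09), and Ccnd1 too (-0.83 and -0.96). Ccnd3, the D cyclin that muscle keeps, stood at 296 against 226 CPM (0.39) in WT and 287 against 271 (0.083) in KO. The other inhibitor, Cdkn1b, had intervals that held 0, at 21.2 against 23.5 CPM in WT (-0.15, -0.74 to 0.44) and 16.6 against 19.8 in KO (-0.25, -0.76 to 0.27). Beside myoblasts, Cdkn1a was above 60 CPM in macrophages alone (64.7 and 66.3 CPM), and the other classes reached at most 21.3.

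Between genotypes, all 22 G2M list genes were below 0 in KO myoblasts, with a list level of 3673 and 2898 CPM (-0.34, -0.38 to -0.30) and a median of -0.35 against -0.028 for all genes. Kif23 was past 1.5-fold, at 70.7 and 42.1 CPM (-0.75, -1.04 to -0.45), where 3.85% of all genes were lower by that much, and Nusap1 (149 and 99.1), Cdc20 (149 and 105) and Cenpa (240 and 170) followed. In CPM the S list differed less (-0.11). At equal depth the share with 3 or more list UMIs was lower in KO myoblasts for both lists. It was 49.6% in WT and 37.9% in KO for the S list and 48.7% and 39% for the G2M list, with intervals that met. The Pax7/Myf5 gate had a G2M list ratio of -0.24 and an S list ratio of -0.052 that was 0.18 with 1 more gate gene (1800 and 2046 CPM), with Ccne1 higher in KO (80.9 and 134 CPM, 0.73, or 0.38 without the deepest barcodes) and Nusap1 (-0.72) and Aurkb (-0.62) lower by over 1.5-fold, where 3.32% of all genes were higher and 5.16% lower. The check genes of the myoblast gate had no common direction between the libraries (Mef2c at 486 CPM in WT and 406 in KO, Des at 282 and 330, Myl1 at 1341 and 1288), and their part in these values was not tested.

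**Figure D5:**
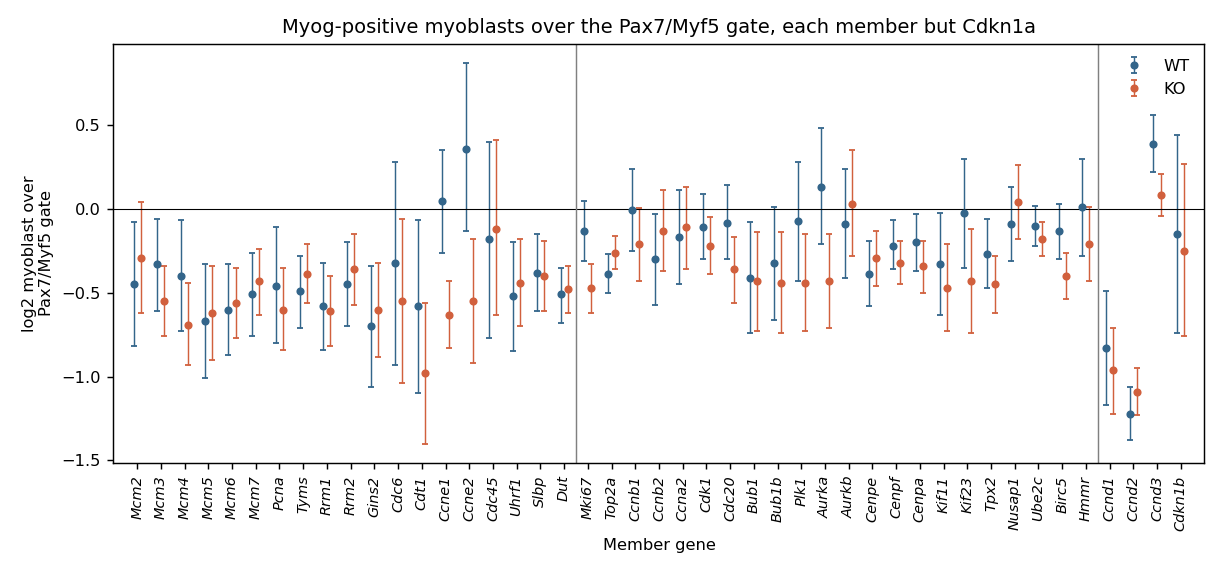
Each point is the log2 ratio of a member gene in Myog-positive myoblasts over the Pax7/Myf5 gate in the WT (blue) or KO (orange) library, with exact 95% intervals for counting error. The S list is on the left, the G2M list in the middle and the G1 and inhibitor list on the right. Cdkn1a (6.98 and 6.32) is left out of the plot for scale. Ccnd2 is lowest in both libraries, and the S list lies mostly below the G2M list.

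Of 60 other cell cycle genes, 59 passed 100 UMIs. In KO over WT weighted to the WT mix, 40 of them were below 0 and 19 above, with a median of -0.11. Of all 14407 genes, 47.1% were below 0, with a median of 0.015. Past 1.5-fold, 1 of the 59 was higher and 2 were lower, a share near the 3.98% and 3.89% of all genes. Sgo1, which protects centromere cohesion, was at 66.1 and 35.1 CPM (-0.91, -0.97 to -0.85), below 0 with its interval in all 11 classes, for example 78.7 and 38.6 CPM in sclerotome and 70.1 and 37.6 in mesenchyme. E2f3, an activator of S phase genes, was at 61.2 and 39.0 (-0.65), below 0 in 11 classes and with its interval in 10. Lin52 of the MuvB core had -0.53 on few UMIs. The gene past 1.5-fold upward, named after its values were seen, was Cdkn2b (p15), at 0.38 and 0.701 CPM on 58 and 102 UMIs (0.88, 0.36 to 1.41). Cdkn1c (p57) was at 1076 and 1518 CPM (0.50, 0.49 to 0.51), higher in 8 of 11 classes, with 1070 and 1735 in sclerotome and 4680 and 6721 in myoblasts, and lower in erythroid, neural crest and neuron barcodes. The factors E2f1 (-0.019), Foxm1 (0.046), Mybl2 (-0.10) and Rb1 (0.069) had intervals that held 0. Along the G2M list Foxm1 was at 3.65 in both libraries and Sgo1 at 3.21 and 3.67, and along the S list E2f1 was at 1.76 and 2.01.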

How the data were processed

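The authors aligned 10x Genomics 3′ reads with Cell Ranger 3.1.0 to mm10 and deposited unfiltered matrices of whole UMI counts per gene and barcode, 1 for each genotype. UMIs were counted at 3′ ends, so they do not scale with gene length. Gene coordinates are those of GENCODE M21. Total depth was 179743201 (WT) and 174597654 (KO) UMIs.

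The members and lists were chosen with earlier results of these data known. Every member is named or counted. Of 60 other cell cycle genes, E2f1, Foxm1, Mybl2, Rb1 and Cdkn1c were named. So were the 4 with the largest absolute ratio among those with 100 or more UMIs in each library. Cdkn2b, Rfc3 and Mad2l1 were named after their values were seen. Of all other genes, the 10 most different along the G2M list were named.

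Barcodes were gated on marker genes with 1 or more UMIs (erythroid on 25% or more globin UMIs), thinned without replacement to 2000 UMIs for shares, and summed to CPM for levels. The study's own barcode filter was not used, and barcodes past several gates, which can hold doublets, were set aside. Ratios carry conditional exact (Clopper-Pearson) intervals, levels exact Poisson intervals, shares exact binomial ones, and ratios weighted to the WT mix normal-approximation ones, all at 95% and for counting error only. With 1 library per genotype there was no test. A gene was counted as higher or lower at 1.5-fold or more, among genes with 100 or more UMIs in the libraries together. The scripts were tested on simulated data. Alternatives covered the depth and mitochondrial limits, gates, deepest barcodes, Pdgfrb-positive KO barcodes, free RNA, globin, the most abundant gene, averaging, scaling and weighting. Python 3.11.15, numpy 2.4.6, scipy 1.17.1, pandas 2.3.3 and matplotlib 3.10.9 were used.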

Additional observations from a re-analysis of the deposited data

Results flagged for a closer look

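The KO over WT ratio of the lists pointed in opposite directions in different classes, with intervals for counting error that excluded 0. The difference between classes was not tested. For the S list the log2 ratio was above 0 in the endothelial (0.11) and smooth muscle (0.16) gates and below 0 in the erythroid (-1.50), macrophage (-0.28), neuron (-0.072), myoblast (-0.11), sclerotome (-0.28) and mesenchyme (-0.11) gates. For the G2M list it was above 0 in the endothelial (0.18), neural crest (0.12), neuron (0.035) and smooth muscle (0.23) gates and below 0 in the erythroid (-0.90), myoblast (-0.34), Pax7/Myf5 (-0.24), sclerotome (-0.13) and mesenchyme (-0.077) gates. These signs were not all kept when the barcodes or gates were set otherwise. The endothelial and neuron signs of both lists and the neural crest and mesenchyme signs of the G2M list each turned under 1 or more alternatives, as given below, and without globin UMIs the neuron G2M value was 0.032 with an interval that held 0. The other classes named here kept their sign under all 9 alternatives.

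List UMIs were also present in barcodes with at most 100 UMIs, which were used only as the measure of free RNA. Their S list level was 1647 CPM for WT and 1671 for KO, and their G2M list level 2881 and 2691 CPM.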

How the results depend on the processing

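The weighted list ratios and the myoblast over Pax7/Myf5 gate ratios kept their sign under the alternatives run, but by class 11 of 22 list and class pairs had another sign under 1 or more of 9 alternatives. Of those with intervals that excluded 0, the S list ratio was -0.031 in endothelial cells and 0.17 in neurons with 1 more gate gene, and -0.014 in endothelial cells without the deepest barcodes. The G2M list ratio was -0.15 in endothelial cells without the deepest barcodes, -0.045 in neural crest, -0.033 in neurons and 0.0099 in mesenchyme with mitochondrial UMIs under 5%, and in neurons -0.062 without Pdgfrb-positive KO barcodes and -0.12 as a mean of single barcodes. The weighted S list ratio, -0.15, was -0.24 with mitochondrial UMIs under 5%, -0.12 with 1 more gate gene, -0.16 without the deepest 5% of barcodes, -0.17 as a mean of single barcodes, -0.16 with median scaling, -0.05 without weighting and -0.11 without the erythroid gate. The G2M list ratio, -0.10, was -0.11, -0.072, -0.14, -0.13, -0.12, -0.012 and -0.053 in the same order, and -0.16 without KO barcodes holding a Pdgfrb UMI, -0.079 without globin and -0.11 without its most abundant gene. The 19 G2M list genes below 0 were 12 without weighting. The myoblast over Pax7/Myf5 gate G2M ratio of WT, -0.19, was -0.28 with mitochondrial UMIs under 5%, -0.35 with 1 more gate gene and -0.30 as a mean of single barcodes, and that of KO, -0.29, was -0.51, -0.49 and -0.36, and -0.23 without the deepest barcodes. The WT share of barcodes with 3 or more G2M list UMIs, 55.0%, was 60.6% with mitochondrial UMIs under 5%, 53.9% without the deepest barcodes, 56.1% without globin, 63.5% and 43.3% with limits of 2 and 5 UMIs, 69.9% thinned to 5000 UMIs and 80.3% unthinned. The KO share, 48.8%, was 53.2%, 47.0%, 56.8%, 39.0%, 62.4% and 74.9% under these in turn (globin aside), 47.1% without Pdgfrb-positive barcodes and 45.7% weighted to the WT mix of barcodes. The cause of these shifts was not tested. Of 22 list and class pairs, 15 were lower in KO, and 13 to 16 under the alternatives. Leaving out the erythroid gate, weighting the shares, recounting the genes below 0 and the single genes by class were chosen after seeing the data. No paired analysis was possible because each genotype is 1 library, and for the same reason no library could be left out and no spread between embryos is known.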

Other observations

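Barcodes were also read by how many UMIs of the other list they held. The mean S list count, at 2000 UMIs per barcode, was 2.30 in WT and 2.27 in KO barcodes with no G2M list UMI, 4.27 and 4.13 in those with 5 to 9, and 3.02 and 3 in those with 10 or more, so it was highest at middle G2M list counts in both libraries. The median full depth also differed along this range, from 11064 UMIs in WT barcodes with no G2M list UMI to 17548 in those with 10 or more, and from 10725 to 16712 in KO, and the part of depth in these values beyond thinning was not tested.

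Among the other cell cycle genes Cdkn1c, an inhibitor that marks cells leaving the cycle in many embryonic tissues, was far more abundant than Cdkn1a, with 3221 CPM in WT and 2484 in KO neural crest and 1069 and 1612 in mesenchyme. Rfc3, a clamp loader subunit (108 and 80.7 CPM, -0.42), and Mad2l1, a spindle checkpoint protein (44.4 and 34.4, -0.37), were also lower in KO with classes weighted to the WT mix. These genes were picked after their values were seen, and 19 of the 59 other cell cycle genes tested were above 0.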
